A study of Homo sapiens with 6 samples.

Results

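The regulators of small GTPases described here are 10 of the 26364 genes in the count table: the ARF exchange factors IQSEC1, IQSEC2 and IQSEC3, the Rab GTPases RAB27A and RAB27B with their effector MLPH, and RAPGEFL1 with the Rap exchange factors RAPGEF1, RAPGEF2 and RAPGEF5. They were taken by gene symbol, and all 10 passed the filter on low counts. IQSEC3, MLPH and RAPGEFL1 were chosen by their measured change, being higher after estradiol (E2) in these same libraries, and the other 7 are their relatives by family. The E2 change of the 10 genes is therefore given as a description with no p-value. Tests of these genes are reported for the knockout effect and for the difference in E2 change between lines.

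The libraries came from Ishikawa cells, an estrogen-responsive line of endometrial adenocarcinoma, and from 2 clones of that line in which ETV4, an ETS-family transcription factor gene, had been knocked out. Each of the 3 lines gave 1 library from cells given 0.1% DMSO, the vehicle, and 1 from cells given 10 nM E2, after 5 days in hormone-depleted medium for both treatments. Treatment lasted 8 h by the protocol and 1 h by the sample characteristics. The clones thus formed groups of n = 2 per treatment and the parental line had 1 library of each, so no parental value has a replicate check. Genotype and line cannot be told apart for the parental line, and p-values measure the spread between these libraries. ETV4 fell by 3.04 on the log2 scale in the clones (SE 0.21, adjusted p = 0.00868 in the quasi-likelihood test of edgeR, called the QL test from here on, with adjustment over all genes).

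Small GTPases switch between a GDP-bound and a GTP-bound form. Exchange factors load them with GTP and turn them on, GTPase-activating proteins turn them off, and effectors bind the GTP-bound form. ARF proteins act in membrane traffic and the actin cortex, Rab27 proteins in the docking of secretory vesicles at the plasma membrane, and Rap proteins in integrin and cadherin adhesion. Estrogen-responsive epithelia such as the endometrium secrete and remodel their junctions under hormone, and all 3 switches operate in epithelial cells.

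The libraries held 28037392 to 36829479 counts. All 6 epithelial markers (EPCAM, CDH1 and keratins) were above 2 CPM (counts scaled to library size, with TMM factors) in each library, with a summed level of 1970 to 2940 CPM. PAX8, SOX17, EMX2 and ESR1 were above 2 CPM in each library too, and PGR was lowest at 1.61 CPM in the parental DMSO library. Immune markers summed to 3.23 to 5.61 CPM, most of it CD68 (2.18 to 4.57 CPM), with CD3E at 0. Stromal markers summed to 46.6 to 85.8 CPM, most of it COL1A1. The markers of melanocytes, the cells in which MLPH and RAB27A are best known, summed to 5.11 to 7.80 CPM. Most of it was PMEL, at 4.83 to 7.6 CPM, while TYR was at 0 in each library. The parental DMSO library stood somewhat apart, with a TMM factor of 0.899 against 1.01 to 1.04 in the other 5. In the parental line the median E2 change on the log2 scale ran from -0.31 in the lowest of 5 equal bins of transcript GC content to 0.32 in the highest. In clone 1 the same medians were -0.04 and 0.08, and in clone 2 they were 0.05 and 0.00. In bulk libraries, fewer cells expressing a gene and less RNA per cell cannot be told apart.

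A promoter window of each of the 3 raised genes is shown because these genes moved together in E2. A window of RAB27A is shown because it holds the only ETS motif found among the members. IQSEC3, MLPH and RAB27A have other windows that are not printed. The IQSEC3 window shown is the only one of that gene with a match to the motifs below. RefSeq (GRCh38.p14) gave 24 windows for the 10 genes, each from 250 bases before to 50 bases after an annotated start, and the 250 bases before the start are printed 5′ to 3′ on the gene's strand. Windows were searched on both strands for the palindromic estrogen response element (GGTCA, any 3 bases, then TGACC), for its core GGTCA alone and for the ETS motif CCGGAAGT; every match to the element would also hold the core. Capitals mark the core (GGTCA, or TGACC on the other strand) and, in RAB27A, the ETS motif.
IQSEC3, downstream annotated start, chr12:77126-77375, plus strand: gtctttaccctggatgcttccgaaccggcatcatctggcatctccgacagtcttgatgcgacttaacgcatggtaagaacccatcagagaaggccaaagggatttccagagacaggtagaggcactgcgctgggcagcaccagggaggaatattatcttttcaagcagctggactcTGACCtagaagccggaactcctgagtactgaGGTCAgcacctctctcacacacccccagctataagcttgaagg
MLPH, chr2:237487001-237487250, plus strand: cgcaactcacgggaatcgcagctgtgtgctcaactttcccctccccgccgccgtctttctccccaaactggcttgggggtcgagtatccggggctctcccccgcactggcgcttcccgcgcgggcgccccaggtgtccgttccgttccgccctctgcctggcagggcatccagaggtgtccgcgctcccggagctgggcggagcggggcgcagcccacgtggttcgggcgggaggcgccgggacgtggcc
RAPGEFL1, chr17:40177220-40177469, plus strand: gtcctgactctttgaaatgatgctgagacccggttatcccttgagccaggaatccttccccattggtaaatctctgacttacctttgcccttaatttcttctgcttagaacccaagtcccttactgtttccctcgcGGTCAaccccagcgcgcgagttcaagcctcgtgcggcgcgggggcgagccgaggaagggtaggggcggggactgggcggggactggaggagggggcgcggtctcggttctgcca
RAB27A, chr15:55319124-55319373, minus strand: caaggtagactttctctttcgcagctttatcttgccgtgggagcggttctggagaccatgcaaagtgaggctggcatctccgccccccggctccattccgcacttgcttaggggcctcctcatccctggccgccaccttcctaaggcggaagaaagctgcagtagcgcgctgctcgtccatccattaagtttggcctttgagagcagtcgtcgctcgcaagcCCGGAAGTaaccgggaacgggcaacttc
The full element was in 0 of the 24 windows, and in 0.057% of all 35116 RefSeq windows of 300 bases. The core was in 7 of the 24 windows, belonging to 6 of the 10 genes, and in 37.4% of all windows. In IQSEC3 it began 74 and 43 bases before the downstream start and was not in the window of the upstream start, and in RAPGEFL1 it began 114 bases before the start. MLPH had no core in either of its windows. The ETS motif was in 1 of the 24 windows, 28 bases before the RAB27A start, and in 4.14% of all windows. These are matches of letters in a short window and were not tied to any binding measurement.

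Among the ARF exchange factors, which share a Sec7 catalytic domain, E2 went with a steep increase of IQSEC3 and with little or no change of IQSEC1 and IQSEC2. IQSEC3 is known mainly from inhibitory synapses, where it binds gephyrin. With DMSO its counts were 16 (parental), 29 (clone 1) and 21 (clone 2), and with E2 they were 680, 643 and 754. In CPM it went from 0.538 to 18.2 in the parental line, from 0.809 to 22 in clone 1 and from 0.717 to 25.8 in clone 2. Each E2 library was above each DMSO library, and the lines differed far less than the treatments. The E2 change was 4.92, 4.66 and 5.05 (log2) in the same order of lines.

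IQSEC1, a broadly expressed factor that acts on ARF6 in endocytosis, had DMSO levels of 32.6 CPM (parental), 46.4 (clone 1) and 58.3 (clone 2). In E2 the values were 55.0, 56.1 and 54.1 CPM. The 3 lines thus met at 1 level in E2, and the parental DMSO library was the lowest of the 6. Its E2 change was 0.76, 0.27 and -0.11 on the log2 scale. IQSEC2, an X-linked gene whose product acts at excitatory synapses, stood at 10.2, 12.9 and 16.1 CPM in DMSO and at 13.3, 12.9 and 14.7 CPM in E2. Its E2 and DMSO values overlapped, with changes of 0.39, -0.01 and -0.13.

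Per length of annotated exon, IQSEC3 went from far below both relatives to above IQSEC2. As CPM per kilobase of exon (RPKM), the parental DMSO library had 0.0716 of IQSEC3, against 4.27 for IQSEC1 and 1.43 for IQSEC2. In E2 it stood at 2.42, against 7.22 and 1.87. In E2 the order IQSEC1, IQSEC3, IQSEC2 was also seen in clone 1 (7.36, 2.93 and 1.81 RPKM) and in clone 2 (7.09, 3.43 and 2.07 RPKM). Exon lengths came from GENCODE v29 and not from the authors' annotation, which limits such comparisons between genes.

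**Figure D1:**
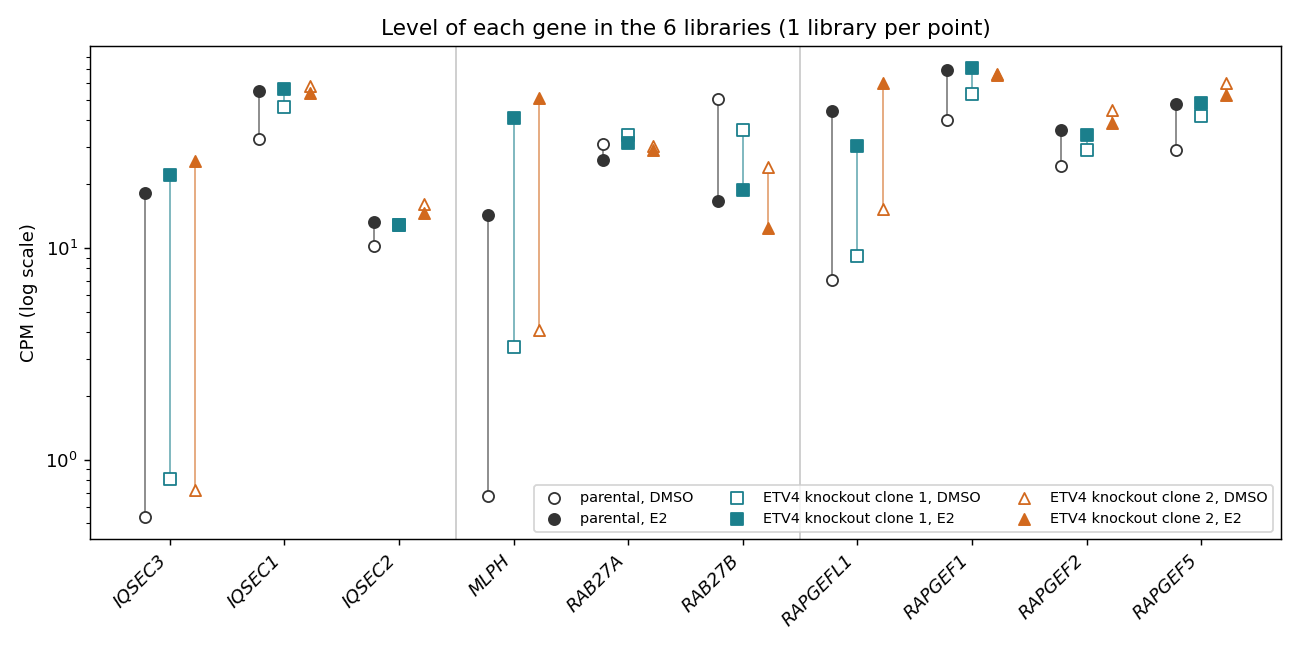
Level of the 10 genes in CPM on a log axis, 1 point per library (open, DMSO; filled, E2; circles, parental line; squares, clone 1; triangles, clone 2), with a line joining the libraries of 1 line. IQSEC3, MLPH and RAPGEFL1 climb in each line, RAB27B descends in each line, and the other 6 genes change little by comparison.

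Rab27 and its effector moved apart. MLPH encodes melanophilin, which binds GTP-bound Rab27A and links vesicles to the motor myosin Va. Its counts with DMSO were 20 (parental), 122 (clone 1) and 120 (clone 2), and with E2 they were 534, 1202 and 1493. In CPM it went from 0.672 to 14.3 in the parental line, from 3.41 to 41.2 in clone 1 and from 4.10 to 51.0 in clone 2. Each E2 library was above each DMSO library, and under either treatment both clones were above the parental line. The E2 change was 4.28, 3.57 and 3.62 on the log2 scale.

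RAB27A, the partner of MLPH in pigment transport and a driver of vesicle docking in secretory cells, was flat. Its DMSO levels were 30.9 CPM (parental), 34.1 (clone 1) and 30.2 (clone 2), and it stood at 25.9, 31.2 and 29 CPM in E2. The E2 and DMSO values overlapped, with changes of -0.25, -0.13 and -0.06. RAB27B, its close paralog with roles in exosome and granule release, was lower in E2 in each line. It went from 50.5 to 16.6 CPM in the parental line, from 36.2 to 18.8 in clone 1 and from 24.2 to 12.4 in clone 2. The lowest DMSO value was thus above the highest E2 value, and the changes were -1.60, -0.95 and -0.96 on the log2 scale.

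The balance between the Rabs and MLPH therefore shifted, as read per length. In DMSO the parental line had 8.34 RPKM of RAB27A, 6.93 of RAB27B and 0.162 of MLPH. In E2 it had 6.99, 2.28 and 3.44. In clone 1 MLPH went from 0.820 to 9.92 RPKM while RAB27A went from 9.21 to 8.42. In clone 2 MLPH went from 0.987 to 12.3 RPKM while RAB27A went from 8.17 to 7.84. After E2 MLPH was above RAB27A in both clones and below it in the parental line.

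Among the Rap regulators, RAPGEFL1 was the gene with the large E2 change. It encodes a protein named for its likeness to Rap exchange factors, and its activity is little described. With DMSO its counts were 209 (parental), 328 (clone 1) and 445 (clone 2), and with E2 they were 1656, 886 and 1759. In CPM it went from 7.03 to 44.3 in the parental line, from 9.16 to 30.4 in clone 1 and from 15.2 to 60.1 in clone 2. Each E2 library was above each DMSO library, and in E2 the parental value lay between those of the clones. There the clones averaged 45.2 ± 21.0 CPM (SD, n = 2). The E2 change was 2.64, 1.72 and 1.98 on the log2 scale.

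The exchange factors with known activity on Rap had small changes. RAPGEF1, which is recruited through CRK adaptors at adhesion sites, stood at 40.0, 53.6 and 65.5 CPM in DMSO in the parental line, clone 1 and clone 2 and at 69.5, 70.5 and 66.6 CPM in E2. RAPGEF2, a PDZ-domain exchange factor of epithelial junctions, stood at 24.5, 29 and 44.8 CPM in DMSO and at 36.2, 34.3 and 38.8 CPM in E2. RAPGEF5 stood at 29.1, 41.9 and 59.8 CPM in DMSO and at 47.8, 48.4 and 52.5 CPM in E2. For all 3, as for IQSEC1, the parental DMSO library was the lowest of the 6 and the DMSO values of the clones lay further apart than their E2 values. The E2 change in the parental line, clone 1 and clone 2 was 0.79, 0.39 and 0.02 for RAPGEF1. It was 0.56, 0.24 and -0.21 for RAPGEF2, and 0.71, 0.21 and -0.19 for RAPGEF5. The changes were thus above 0 in the parental line and between -0.21 and 0.02 in clone 2.

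**Figure D2:**
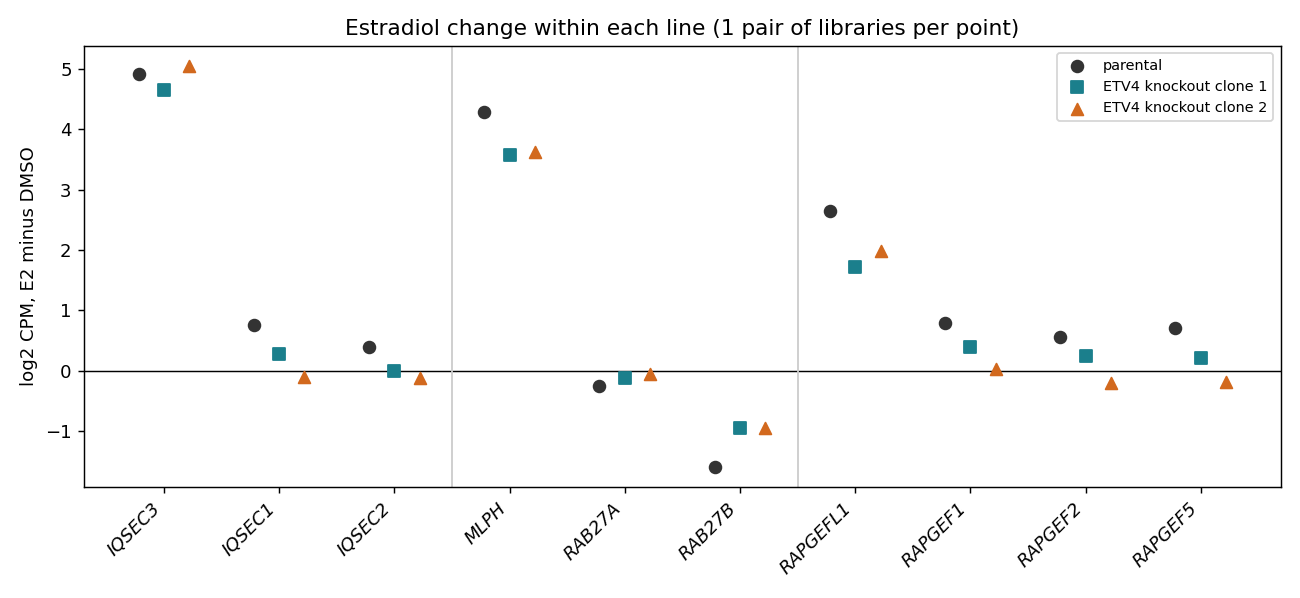
E2 change of each gene within each line, as log2 CPM in E2 minus log2 CPM in DMSO, 1 point per pair of libraries. The 3 raised genes lie between 1.72 and 5.05 in each line, and RAB27B lies between -1.60 and -0.95.

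Fitted over the 6 libraries with genotype in the model, the E2 coefficient was 4.99 (SE 0.19) for IQSEC3, 3.82 (SE 0.22) for MLPH and 2.14 (SE 0.34) for RAPGEFL1, on the log2 scale. The next in size among the relatives were RAB27B at -1.17 (SE 0.25) and RAPGEF1 at 0.40 (SE 0.16). The remaining coefficients ran from -0.15 for RAB27A to 0.30 for IQSEC1. In the 4 libraries of the clones together with the parental E2 library, and so without the parental DMSO library, the coefficients were 4.94, 3.60, 1.88 and -0.97 for IQSEC3, MLPH, RAPGEFL1 and RAB27B. RAPGEF1 was at 0.19 and IQSEC1 at 0.06 in that fit, while RAB27A was at -0.11, IQSEC2 at -0.09, and RAPGEF2 and RAPGEF5 at -0.03 each. The E2 level was 2-fold or more above the DMSO level in each line for the 3 raised genes, as it was for 1.52% of all genes. By an adjusted p below 0.05, the mark by which the 3 genes are called raised here, 0.903% of the 15611 genes tested were higher and 0.224% lower, and with line as a replicate block 0.743% were lower. The 10 genes were chosen with this contrast known, so their own counts (3 higher and 0 lower, with RAB27B lower once line is a block) restate the choice and are no test.

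The genes most like the raised ones across the 6 libraries, by Euclidean distance between centred log2 CPM profiles among 12366 other genes whose mean reached 2 CPM, were found for each. For IQSEC3 they were DHRS3 (distance 0.827), MMP17 (0.997) and NPPC (1.12). For MLPH they were MUC5B (0.719), which encodes a secreted mucin, the chloride channel gene ANO1 (0.895) and LOC200772 (1.01). For RAPGEFL1 they included NPIPB3 (0.410) and KAZN (0.542). All 8 genes named here were higher in E2 in each line, and the measure says only that their profiles over the same 6 libraries were close.

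The knockout effect asked whether the clones differed from the parental line with treatment in the model. MLPH was the 1 member of 10 past an adjusted p of 0.05, against 0.327% of all genes tested and 0.147% in the same direction. It was higher in the clones by 1.96 on the log2 scale (SE 0.24, adjusted p = 0.0367 in edgeR's QL test). That fit treated the DMSO and E2 libraries of a line as independent. With line as a replicate block MLPH was higher by 1.8 (SE 0.24, adjusted p = 0.0499, limma's moderated test), barely under the threshold. The within-line correlation used in that fit was only 0.113, so it stayed close to a fit of independent libraries. The share of all genes passing in the blocked fit is not given here. Its difference was 2.24 in clone 1 and 2.50 in clone 2 in DMSO and 1.53 and 1.83 in E2, so it was higher in all 4 like-for-like comparisons. In DMSO the clones averaged 3.75 ± 0.490 CPM (SD, n = 2) against 0.672, and in E2 they averaged 46.1 ± 6.93 CPM (SD, n = 2) against 14.3. Without the parental DMSO library, in which MLPH had its 20 counts, the difference was 1.68, which did not pass (adjusted p = 0.275, edgeR's QL test). With total-count scaling it was 2.03 (adjusted p = 0.0504, edgeR's QL test). Over the alternatives with all 6 libraries the adjusted p ran from 1.71e-10 (DESeq2's Wald test) to that 0.0504. With a clone left out each group held 1 library, and only the size of the difference is given. It was 2.11 without clone 1 and 1.78 without clone 2.

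The other 9 genes did not pass. Their fitted differences ran from -0.43 (SE 0.26) for RAB27B to 0.43 (SE 0.18) for IQSEC3, with adjusted p-values from 0.436 to 0.638 in edgeR's QL test. IQSEC3 was higher in the clones in all 4 like-for-like comparisons, by 0.28 to 0.54. RAPGEFL1 was 0.54 lower in clone 1 and 0.44 higher in clone 2 in E2, and leaving out clone 2 turned its fitted difference from 0.38 to -0.12. The median over the 10 genes was 0.31, beside 0.01 over all genes tested.

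The differences were mostly in the DMSO libraries. There both clones were above the parental library for 8 of the 10 genes, all but RAB27A and RAB27B, while 42% of all genes showed this pattern. In E2, leaving MLPH aside, the clones stood within 0.54 of the parental library on either side for each gene. Once each library's trend on GC content and length had been removed, both clones were above the parental DMSO library for 8 of 10 genes, beside 43.9% of all genes, but several differences were smaller. The fitted difference went from 0.33 to 0.21 for IQSEC1, from 0.27 to 0.10 for IQSEC2, from 0.26 to 0.12 for RAPGEF1 and from 0.29 to 0.13 for RAPGEF2. The parental DMSO library enters both this comparison and the E2 change of the parental line, and other differences of that library from the rest cannot be told apart from the genotype.

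**Figure D3:**
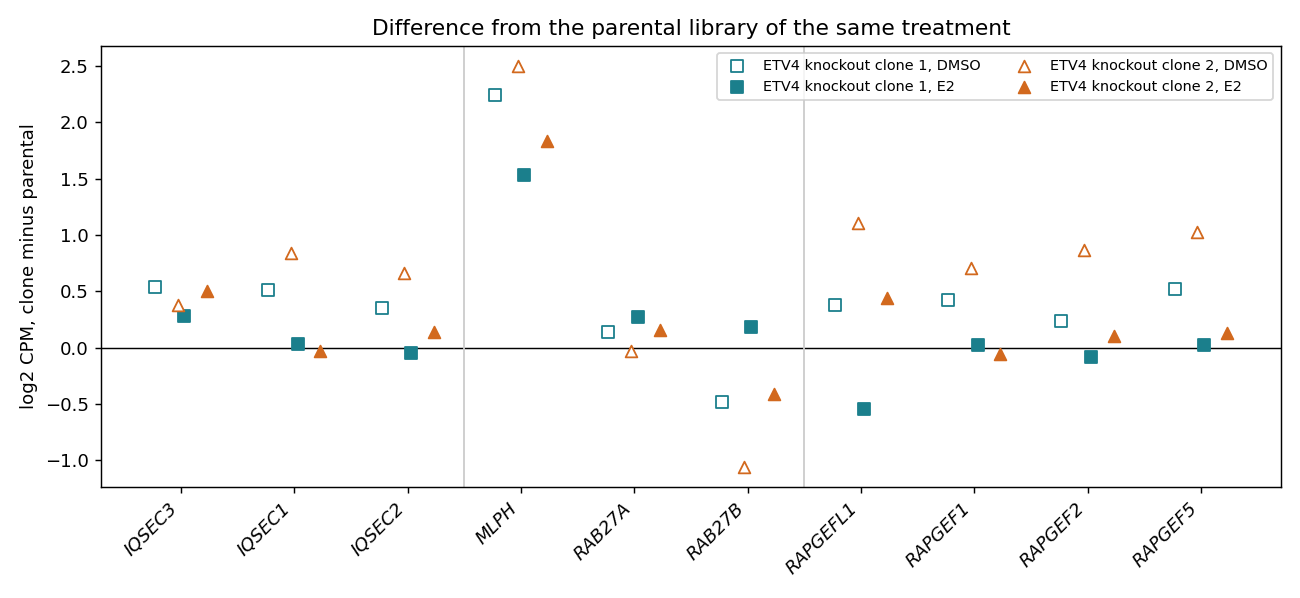
Difference in log2 CPM between each knockout clone and the parental library of the same treatment, for each gene (open, DMSO; filled, E2; squares, clone 1; triangles, clone 2). MLPH lies between 1.53 and 2.50 in all 4 comparisons, and for the IQSEC1, IQSEC2 and RAPGEF1, RAPGEF2 and RAPGEF5 genes the open symbols are above 0 and the filled ones are close to it.

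Whether E2 acted differently in the clones was tested by the interaction of E2 with genotype. Without a block 0 of the 10 genes passed, as for 0 of all 15611 genes, with 1 member (IQSEC1) at an unadjusted p under 0.05 in edgeR's QL test. Limma-voom called 0 members, and DESeq2, whose filter left 0 of the 10 with an adjusted p, gave no verdict on them (0 had an unadjusted p under 0.05 there). With line as a replicate block, the pairing the clone names give, 4 of the 10 passed, beside 15.8% of all genes. The E2 change was smaller in the clones for RAPGEFL1 (-0.79, SE 0.23, adjusted p = 0.00972), RAPGEF5 (-0.71, SE 0.22, adjusted p = 0.0146) and IQSEC1 (-0.67, SE 0.22, adjusted p = 0.0215) in edgeR's QL test with the block. For RAB27B the interaction was 0.65 (SE 0.22, adjusted p = 0.0279, edgeR's QL test with the block), the decrease being less deep in the clones. That fit left 1 residual degree of freedom.

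The raised genes IQSEC3 and MLPH did not pass in either fit. For IQSEC3 the interaction with the block was -0.12 (SE 0.44, adjusted p = 0.895, edgeR's QL test), and for MLPH it was -0.78 (SE 0.36, adjusted p = 0.125, edgeR's QL test). The parental change was above that of both clones for 7 of the 10 genes, beside 44.4% of all genes. With GC content and length corrected it was 7 of 10, beside 45.9%.

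GC content moved with several of these values. IQSEC2, IQSEC3, RAPGEFL1 and RAPGEF1 were in the highest of the 5 GC bins (58.1% and above), IQSEC1 and MLPH in the next one, and RAB27A (38.2%) and RAB27B (35.9%) in the lowest. After that correction the parental E2 change went from 0.76 to 0.33 for IQSEC1, from 0.79 to 0.28 for RAPGEF1, from 0.39 to -0.21 for IQSEC2 and from 0.56 to 0.20 for RAPGEF2. It went from 0.71 to 0.56 for RAPGEF5 and stayed at -1.60 for RAB27B. For the raised genes it was 4.23 for IQSEC3, 4.13 for MLPH and 2.29 for RAPGEFL1. With the correction and the block together 2 members passed the interaction test, RAPGEF5 at -0.59 (adjusted p = 0.0443) and RAB27B at 0.59 (adjusted p = 0.0449), in edgeR's QL test. IQSEC1 was then at -0.29 (adjusted p = 0.302) and RAPGEFL1 at -0.46 (adjusted p = 0.179) in the same test. The share of all genes passing in that corrected fit is not given here, so the 2 calls cannot be set beside it.

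**Figure D4:**
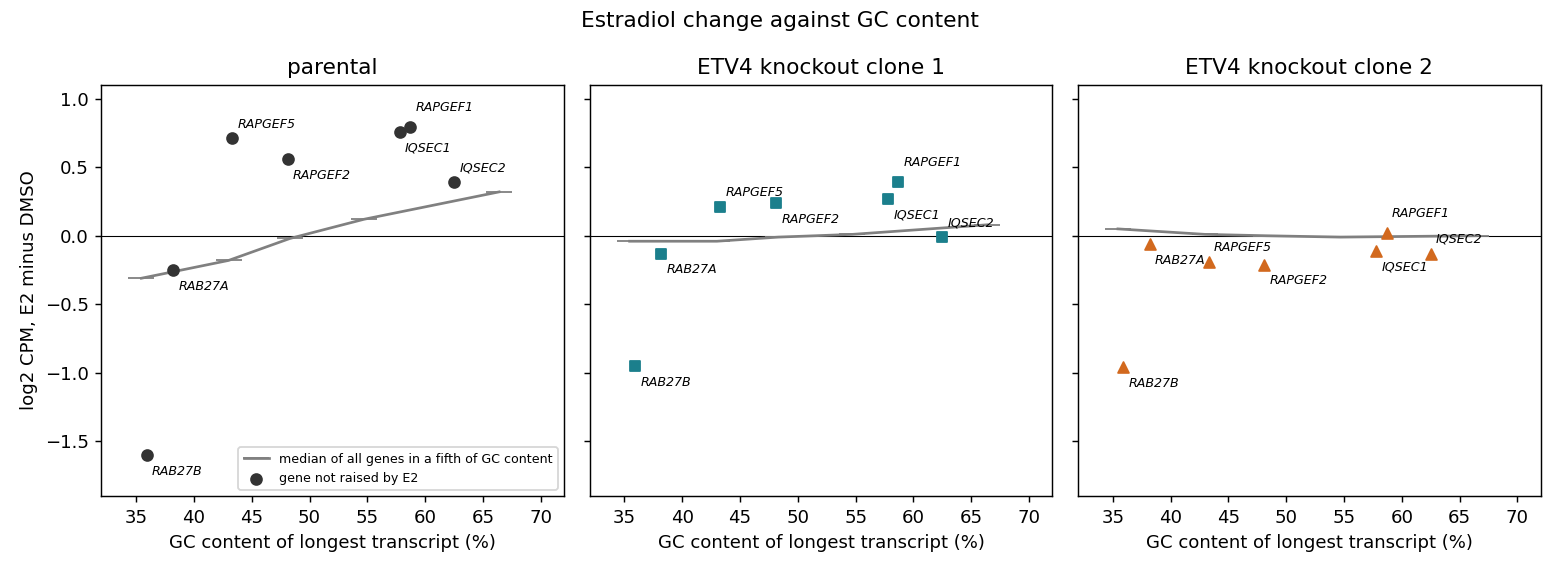
E2 change on the log2 scale of the 7 relatives against the GC content of their longest transcript, by line, with the median of all genes in each of the 5 GC bins as a grey line drawn at the middle of the bin. In the parental line the grey line climbs from -0.31 to 0.32, while it lies between -0.04 and 0.08 in clone 1 and between -0.01 and 0.05 in clone 2.

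The wider machinery of the 3 switches was read in lists of 91 further genes, of which 83 could be tested: ARFs, Raps, Rab27-like Rabs and their exchange factors, GTPase-activating proteins and effectors. In the E2 contrast 0 of the 83 passed in edgeR's QL test, with 15 at an unadjusted p under 0.05, while 1.13% of all genes passed. DESeq2 called 6 of the 82 to which it gave an adjusted p, beside 1115 of 14703 genes, and limma-voom called 0. Calls depended on which line was left out. Counts at an unadjusted p and counts by limma-voom, here and below, have no share of all genes beside them. Coefficients ran from -0.62 for PSD4, an ARF6 exchange factor, to 1.42 for RASGRP1, an exchange factor with a diacylglycerol-binding domain. Of the 83 genes, 2 had a coefficient of at least 2-fold, neither past the threshold in this fit: RASGRP1 and TBC1D10C (1.41, SE 0.67, adjusted p = 0.282 in edgeR's QL test), the latter in the family of Rab27 GTPase-activating proteins. TBC1D10C had only 3 to 37 counts in a library, and its change was 2.10 in the parental line and 2.41 in clone 1 but 0.29 in clone 2. The median over the 83 was 0.08, beside -0.02 over all genes tested.

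RASGRP1 passed once line was a block (1.35, adjusted p = 0.0331, edgeR's QL test), beside 1.72% of all genes that were higher there. It went from 2.92 to 7.67 CPM in the parental line, from 3.32 to 10.8 in clone 1 and from 2.05 to 3.83 in clone 2. By list, the 12 other Sec7 proteins had a median E2 coefficient of 0.12, with CYTH2 highest at 0.48. The 5 ARF GTPases had a median of -0.12 and ran from -0.40 for ARF5 to 0.02 for ARF6. The 20 ARF GTPase-activating proteins had a median of 0.24, with ACAP3 highest at 0.88.

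On the Rab27 side 9 tested genes were listed with the effectors, MLPH aside. They ran from -0.59 for SYTL2, a synaptotagmin-like protein, to 0.23 for MYO5A, the myosin that MLPH recruits. Their median was -0.08. The 6 Rab27 regulators had a median of 0.16 and the 5 secretory Rabs closest to Rab27 one of 0.10. On the Rap side the 5 GTPases ran from -0.60 for RAP1B to -0.03 for RAP2A, and the 6 Rap GTPase-activating proteins had a median of 0.29. The 5 genes listed as other Rap exchange factors had a median of 0.08 and the 10 Rap effectors and adaptors one of 0.03. RASGRP1 and RASGRP2 were on the former list, and action of RASGRP1 on Rap was not tested. RAP1A, RAP1B and ARF genes have close copies or pseudogenes, so the division of their reads is uncertain.

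In the knockout contrast 0 of the 83 genes passed in edgeR's QL test, with 9 at an unadjusted p under 0.05, while 0.327% of all genes passed. DESeq2 called 1, the vesicle-priming gene UNC13D (1.03, adjusted p = 0.0433 in DESeq2's Wald test), beside 454 of 15308 genes. Limma-voom called 0, and calls changed when a clone was left out. The median over the 83 was 0.11, beside 0.01 over all genes tested.

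In the interaction 0 of the 83 passed without a block in edgeR's QL test, with 5 at an unadjusted p under 0.05. Limma-voom called 0, and DESeq2 called 0 of the 10 to which it gave an adjusted p. With the block 12 passed, 9 with a lower E2 change in the clones and 3 with a higher one, beside 6.92% and 8.90% of all genes. The lower ones were RAPGEF3 (-1.18), the cyclic AMP-gated Rap exchange factor EPAC1, the vesicle-priming gene UNC13D (-1.23), CYTH2, ACAP3, ARAP1, AGAP3, ARFGAP1, RAP1GAP2 and SIPA1L3. The higher ones were FBXO8 (0.96), RAP2C (0.72) and CHM (0.61), the Rab escort protein gene. In the parental line RAPGEF3 was at 36.3 CPM in DMSO and 66.2 in E2, at 48.7 and 39.1 in clone 1 and at 29.9 and 24.0 in clone 2. It was thus higher in E2 in the parental line and lower in both clones. With GC content and length also corrected 3 passed, RAPGEF3 (-0.73), AGAP3 (-0.57) and RAP2C (0.56). The share of all genes passing in that corrected fit is not given here.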

How the data were processed

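The members and gene lists were chosen with earlier results of these data known. Poly(A)-selected libraries were made with a stranded kit, per the labels' protocols. The deposited table holds raw counts per gene symbol, and the submitters' processing notes name HISAT2, SAMtools, Subread and DESeq2 and the build hg19, with no role, version or annotation. Use of strand in counting is not given in the sources used here, so IQSEC3 and RAB27B, which overlap opposite-strand genes in GENCODE v29 (121 and 262 bases, and 341 bases), are uncertain there.

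The analysis of counts used edgeR 4.0.16 under R 4.3.3 (filterByExpr on the 4 groups, TMM scaling, quasi-likelihood test, Benjamini-Hochberg adjustment over 15611 genes, threshold 0.05), with models of treatment plus genotype and of their interaction. Column names DMOS and ER were read as DMSO and E2. Log2 CPM used a prior count of 2. Standard errors are the coefficient over the square root of F. The same clone under both treatments pairs the libraries (correlation of the difference between clones in DMSO and in E2, 0.626), and the replicate block was line, as a random effect in limma 3.58.1 for the knockout effect. Alternatives were other scalings and filters, DESeq2 1.42.0, limma-voom, the block and each line left out. Added after seeing the data were a lowess correction for GC content and transcript length (96.8% of tested genes matched), also with the block, and leaving out the parental DMSO library. Genes named by rule are the 10 members, ETV4, list genes past the threshold in the fits without and with the block, and the 3 nearest genes of each raised member, 1 of which is not reported here. Markers are named as a check of cell type. Other list genes (some with the lowest or highest coefficient of a list, some called in another alternative) were chosen after their values were seen, and not every such gene is named.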

Additional observations from a re-analysis of the deposited data

Results flagged for a closer look

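With line as a replicate block, 4 of the 10 genes passed the interaction test, beside 15.8% of all genes. They were RAPGEFL1 (interaction -0.79), RAPGEF5 (-0.71), IQSEC1 (-0.67) and RAB27B (0.65), on the log2 scale. That fit left 1 residual degree of freedom. Without the block none of these 4 passed the threshold in edgeR's QL test, where the interaction was -0.76, -0.73, -0.68 and 0.65. With the block and with GC content and length corrected, RAPGEFL1 (adjusted p = 0.179) and IQSEC1 (adjusted p = 0.302) did not pass in edgeR's QL test. IQSEC2 had a parental E2 change of 0.39 and changes of -0.01 in clone 1 and -0.13 in clone 2. In clone 1 it stood at 12.9 CPM under both treatments, so only clone 2 was lower. Its interaction of -0.47 (SE 0.35) did not pass (adjusted p = 0.682, edgeR's QL test). With GC content and length corrected the changes were -0.21 (parental), -0.2 (clone 1) and -0.08 (clone 2), and the interaction was 0.07.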

How the results depend on the processing

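Line as a replicate block, which the clone names pair, moved the members called in the interaction from 0 to 4, the pathway genes called there from 0 to 12 and those called for E2 from 0 to 1. Of all genes 15.8% passed the interaction with the block, and for E2 1.72% were higher and 0.743% lower. The block left the 1 member called for the knockout effect (MLPH, adjusted p = 0.0499, limma's moderated t-test), with a within-line correlation of 0.113. No share of all genes is given for that fit. The block together with the GC and length correction gave 2 members and 3 pathway genes in the interaction and 8 pathway genes for E2. The correction alone gave 1 for E2 (PSD4). Shares of all genes are not given for the corrected fits. DESeq2 called 6 pathway genes for E2 and 1 for the knockout effect, beside 1115 of 14703 and 454 of 15308 genes. Total-count scaling, and leaving out the parental DMSO library, each left 0 members called for the knockout effect; the cause was not tested. Leaving out lines gave 0 to 24 pathway genes for E2 and 1 to 6 for the knockout effect, the highest without clone 2. Fewer libraries enter whichever line is left out, and with a clone left out each group held 1 library. No share of all genes is given for these fits, so their counts cannot be read as a response particular to the pathway genes. Why the counts differed between these fits was not tested. Without clone 1 the genes called were ACAP3 and RASGRP1 for E2 and TBC1D10C for the knockout effect. The members called for the knockout effect stayed at 1 in those fits.

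Among the members' knockout effects and interactions, signs turned in the following, none past the threshold where a test could be made: the RAPGEFL1 knockout effect without clone 2 (-0.12, against 0.75 without clone 1), the knockout effects of IQSEC1 (-0.01) and RAPGEF1 (-0.03) without the parental DMSO library, and the interactions of IQSEC2 (0.07 with the correction, with or without the block), IQSEC3 (0.47 and 0.48 with the correction, 0.10 without clone 1, -0.31 without clone 2) and RAB27A (-0.03 with total counts, -0.14 with the correction). Small E2 coefficients also turned: IQSEC2 from 0.08 to -0.16 with the correction and to -0.08 without the parental line, and RAPGEF2 and RAPGEF5 from 0.18 and 0.23 to -0.02 each without the parental line. Without the parental DMSO library they turned too, to -0.09 for IQSEC2 and -0.03 each for RAPGEF2 and RAPGEF5. Total-count scaling shifted the median of all genes by 0.10 for the knockout effect and -0.19 for the interaction. The knockout effect could not be fitted without the parental line, the interaction had no test with a line left out, and DESeq2 gave the members no adjusted p there. Depth limits IQSEC3 and MLPH in DMSO most, with 16 and 20 counts in the parental library.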
